A study of Mus musculus with 8 samples.

Results

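A set of 8 genes of lymphoid tissue and of the secretory antibody system was followed in colon epithelial cells of mice: the chemokines Ccl21a, Ccl21b, Ccl21c, Ccl19 and Cxcl13, the chemokine receptor Ccr7, the immunoglobulin joining chain Jchain and the polymeric immunoglobulin receptor Pigr. These are 8 of the 19505 genes that the array names. They were chosen by symbol, with earlier results of these data known. Where several array rows carry one symbol, the row of highest mean was taken. RNA came from C57BL/6J mice lacking sphingomyelin synthase 2 (SMS2, gene symbol Sgms2; KO below) or wild-type (WT), which had drunk water with 3.5% DSS for 2 days or were untreated. DSS, dextran sulfate sodium, damages the lining of the colon. The 4 groups were KO with DSS, WT with DSS, KO untreated and WT untreated, each with 2 arrays of separate biological samples. The sources used here do not say whether a sample was 1 mouse or a pool, which part of Sgms2 was deleted, or the age of the mice.

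CCL21 and CCL19 are ligands of the receptor CCR7, and draw dendritic cells and naive T cells into lymphatic vessels and lymphoid tissue. CXCL13, made mainly by stromal and follicular dendritic cells, draws B cells that carry the receptor CXCR5 into follicles. In the gut wall, plasma cells use the joining chain to build polymeric IgA, and the polymeric immunoglobulin receptor on epithelial cells carries that IgA to the lumen. Ccr7, Jchain and the chemokines are thus typical of immune or stromal cells, and Pigr of the epithelium itself.

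All 16 colon epithelial marker genes lay above background on each of the 8 arrays, with Epcam between 16.31 and 16.93 on the log2 signal scale. Markers of other cells were bright too. The smooth muscle gene Acta2 lay between 14.04 and 16.67 and the fibroblast gene Dcn between 11.38 and 16.95. Background was set per array, as the signal that 75% of its negative-control rows stay under, and was between 6.00 and 6.24. Sgms2 was at 7.35 and 6.47 in KO with DSS and 7.30 and 7.33 in untreated KO, against 11.27 and 10.90 in WT with DSS and 10.79 and 10.76 in untreated WT. The Y-linked genes Eif2s3y, Uty and Kdm5d lay above background on all 4 DSS arrays and under it on all 4 untreated arrays. The labels give no sex, so the DSS comparisons also set arrays with these transcripts against arrays without them, and both differences cannot be told apart. The exocrine pancreas list averaged 7.61 and 6.68 in KO with DSS and 11.51 and 6.71 in WT with DSS, with 6.75 and 6.64 in untreated KO and 6.51 and 6.38 in untreated WT. WT DSS replicate 1 therefore stood apart, and KO DSS replicate 1 less so. In bulk RNA, fewer cells of a type and less RNA per cell cannot be told apart.

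After DSS, the Ccl21 copies, Cxcl13 and Jchain were higher than in untreated mice of the same genotype, in WT and in KO, while Ccr7 and Pigr differed by under 0.2 on the log2 scale. Of the 7 genes tested, 5 rose in WT, where 2.91% of the 13003 genes tested rose. The same 5 genes rose in KO, where 0.538% of all genes tested did. The set was chosen with earlier results of these data known, so the counts beside these shares are a description, not a test. The median difference of the 7 genes was 3.36 in WT and 2.13 in KO, beside medians over all genes tested of -0.05 and -0.04. A DSS group wholly above its untreated group was common, at 20.3% of all genes tested in WT and 16.8% in KO, and all 4 DSS arrays lay above all 4 untreated arrays in 4.76%. Ccl21b and Ccl21c carry identical values, and with all Ccl21 copies read as 1 signal, 3 of 5 signals rose in each genotype, so the count of 5 genes holds 1 signal more than once. Ccl19 lay under the filter on low values and was not tested.

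**Figure D1:**
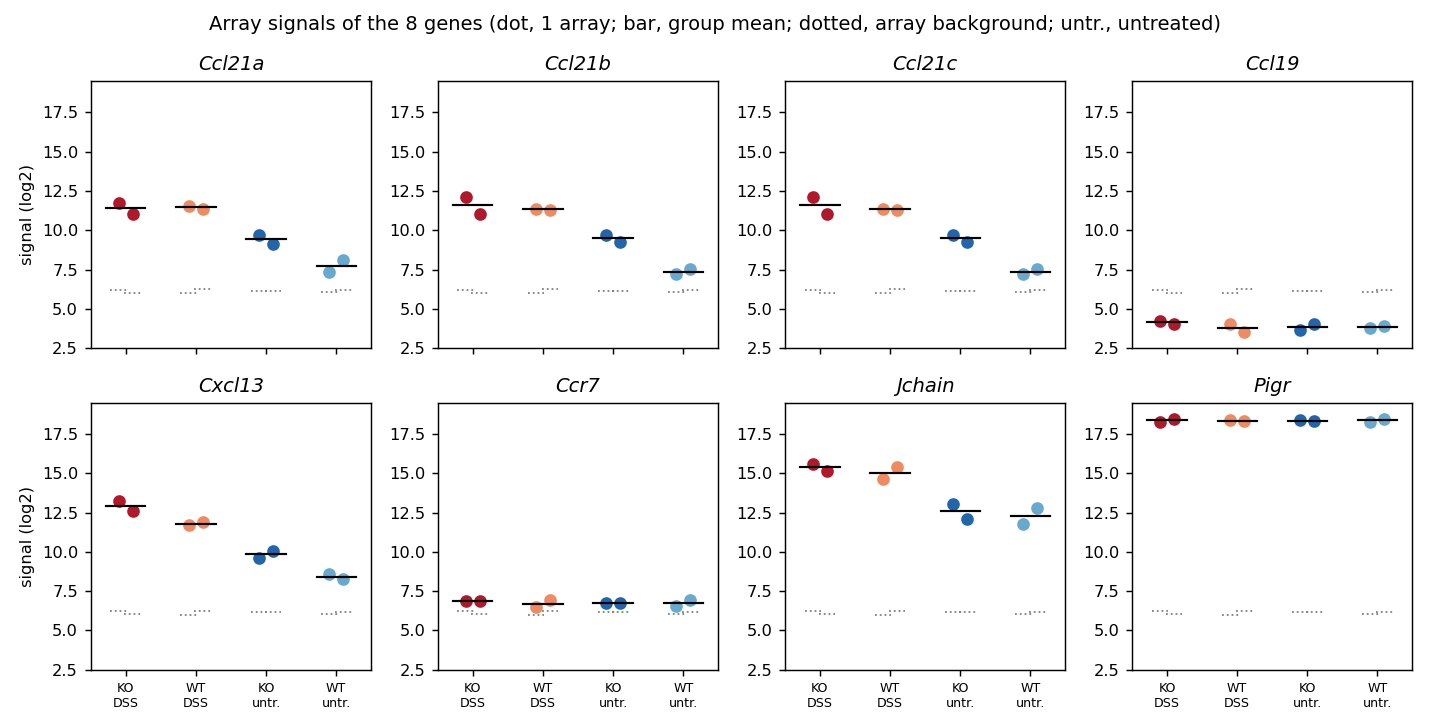
Log2 array signal (y axis) of each of the 8 genes in KO with DSS, WT with DSS, untreated (untr.) KO and untreated WT. Dots are single arrays, black bars group means of 2 arrays and dotted lines the background of each array. The Ccl21 copies, Cxcl13 and Jchain sit higher in the DSS groups, Ccr7 lies just over background, Ccl19 under it, and Pigr near 18.35 in every group.

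The CCR7 ligand Ccl21a (array row TC4_JH584294_random00000009.mm.2) had signals of 11.56 and 11.36 in DSS-treated WT, against 7.35 and 8.11 in untreated WT. In KO it had 11.75 and 11.06 with DSS, against 9.72 and 9.16 untreated. All 4 DSS arrays lay above all 4 untreated arrays, and the untreated WT arrays were the lowest. The difference was 3.73 ± 0.33 in WT, a 13.3-fold change (limma, SE, adjusted p = 7.73e-05). In KO it was 1.96 ± 0.33, a 3.90-fold change (limma, adjusted p = 0.0188).

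Ccl21b and Ccl21c, further copies of the gene, had 11.37 and 11.30 in DSS-treated WT, against 7.19 and 7.55 in untreated WT. In KO they had 12.15 and 11.07 with DSS, against 9.73 and 9.23 untreated. The groups did not overlap within either genotype. The difference was 3.96 ± 0.34 in WT (limma, adjusted p = 6.91e-05) and 2.13 ± 0.34 in KO (limma, adjusted p = 0.0154). Another array row of Ccl21b, which was not the one of highest mean, gave 4.12 ± 0.39 in WT (limma, adjusted p = 1.43e-04) and 2.00 ± 0.39 in KO (limma, adjusted p = 0.0397). The mouse copies are near-identical in sequence, so an array row may pick up several of them and the copies should be read as 1 signal.

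Ccl19, the other CCR7 ligand, was under background on every array. Its signals were 4.23 and 4.06 in KO with DSS, 4.05 and 3.55 in WT with DSS, 3.68 and 4.03 in untreated KO and 3.81 and 3.93 in untreated WT. These values give no direction, since each is a signal that was not above background.

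Cxcl13 (TC0500000922.mm.2), the B cell chemokine, had 11.70 and 11.87 in DSS-treated WT, against 8.57 and 8.29 in untreated WT. In KO it had 13.24 and 12.63 with DSS, against 9.63 and 10.08 untreated. The 4 groups stood in a fixed order with no overlap between neighbours, KO with DSS highest, then WT with DSS, untreated KO and untreated WT. The DSS difference was 3.36 ± 0.28 in WT, a 10.3-fold change (limma, adjusted p = 5.73e-05), and 3.08 ± 0.28 in KO, an 8.47-fold change (limma, adjusted p = 4.86e-04). Cxcl13 was the 1 gene of the 7 that kept its call in both genotypes under every other setting tried and with each array left out, with adjusted p-values between 1.17e-05 and 0.00150 in WT and between 9.93e-05 and 0.0238 in KO.

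Ccr7, the receptor of CCL21 and CCL19 on dendritic cells and lymphocytes, was just over background. It had 6.86 and 6.86 in KO with DSS, 6.47 and 6.91 in WT with DSS, 6.73 and 6.73 in untreated KO and 6.53 and 6.94 in untreated WT. The difference with DSS was -0.05 in WT (95% interval -0.59 to 0.49; limma, adjusted p = 0.96) and 0.13 in KO (95% interval -0.41 to 0.67; limma, adjusted p = 0.931). In WT the groups overlapped, and in KO both DSS arrays lay just above both untreated ones. At a signal this close to background a change in a few cells may not be detectable. Cxcr5, the CXCL13 receptor, was under background throughout, at 4.40 and 4.21 in KO with DSS, 4.13 and 4.51 in WT with DSS, 4.54 and 4.42 in untreated KO and 4.48 and 4.35 in untreated WT. Ackr4, a scavenger receptor of the CCR7 ligands, was also under background on all arrays.

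Jchain (TC0500002712.mm.2) had 14.61 and 15.42 in DSS-treated WT, against 11.76 and 12.76 in untreated WT. In KO it had 15.61 and 15.15 with DSS, against 13.06 and 12.09 untreated. All 4 DSS arrays lay above all 4 untreated arrays, and in each treatment the arrays of both genotypes overlapped. The difference was 2.75 ± 0.41 in WT, a 6.74-fold change (limma, adjusted p = 0.00291), and 2.81 ± 0.41 in KO, a 6.99-fold change (limma, adjusted p = 0.0129). The SDs of Jchain were 0.32 in KO with DSS, 0.57 in WT with DSS, 0.69 in untreated KO and 0.71 in untreated WT (n = 2 each).

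Pigr (TC0100001165.mm.2), which takes J chain-bearing IgA across the epithelium, was bright and level. It had 18.29 and 18.46 in KO with DSS, 18.37 and 18.34 in WT with DSS, 18.36 and 18.30 in untreated KO and 18.27 and 18.45 in untreated WT. The groups overlapped in every comparison. The DSS difference was -0.01 in WT (95% interval -0.49 to 0.47; limma, adjusted p = 0.99) and 0.04 in KO (95% interval -0.44 to 0.52; limma, adjusted p = 0.984). The brightest gene row of an array was between 19.36 and 19.61, so Pigr was measured near the top of the scale, and whether the signal is compressed there was not tested.

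In WT all 5 genes passed under each alternative and with each array left out. In KO only Cxcl13 passed without KO DSS replicate 1, without untreated KO replicate 2, or in a fit on the 4 KO arrays alone. With WT DSS replicate 1 and KO DSS replicate 1 both left out, 5 genes passed in WT and 4 in KO, where Ccl21a differed by 1.62 (limma, adjusted p = 0.0621).

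**Figure D2:**
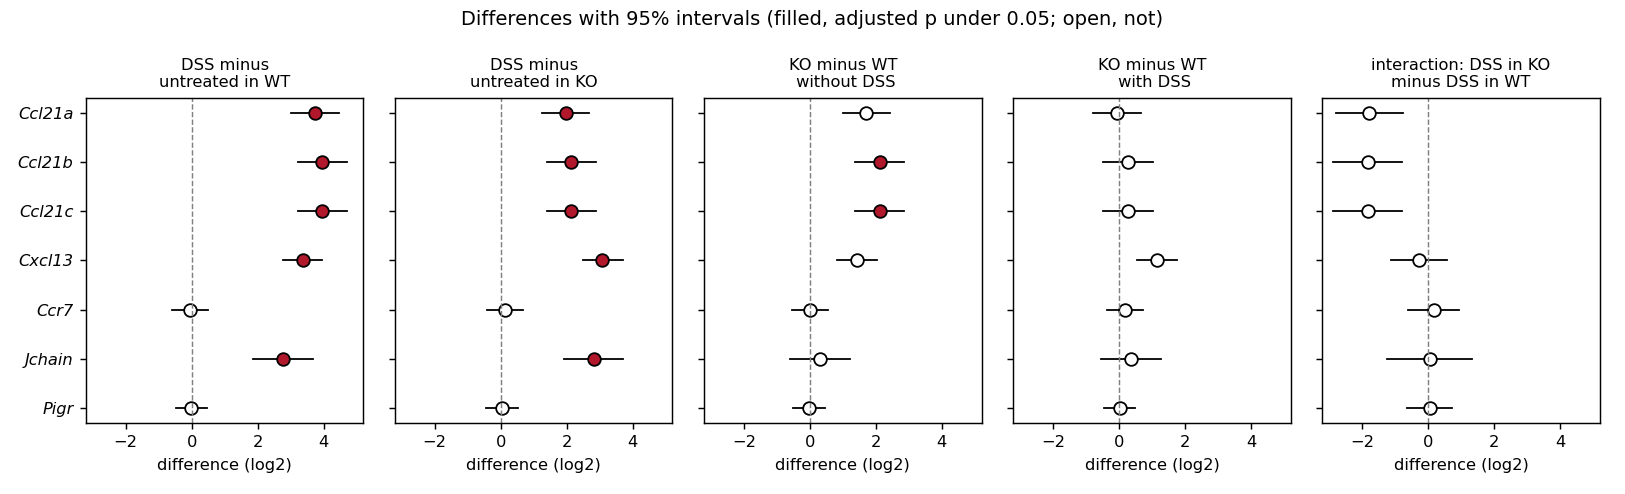
Differences on the log2 scale (x axis) of the 7 tested genes in 4 comparisons and in the interaction, with 95% intervals from limma. Filled circles have an adjusted p under 0.05. With DSS 5 genes are filled in each genotype, between genotypes only Ccl21b and Ccl21c without DSS, and none in the interaction.

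Without DSS, the Ccl21 signals and Cxcl13 were above WT in both KO arrays. Ccl21b and Ccl21c were higher in KO by 2.11 ± 0.34, a 4.31-fold change (limma, adjusted p = 0.0292), and these 2 of the 7 tested genes passed, against 0.338% of all genes tested that were higher. Their values are identical, and with all Ccl21 copies read as 1 signal, 1 of 5 signals passed. A signal was counted there if any of its copies passed. The Ccl21a row, with the highest mean of the copies (10.01 against 9.95), did not pass. Ccl21a had a difference of 1.71 ± 0.33 (limma, adjusted p = 0.0557) and Cxcl13 of 1.43 ± 0.28 (limma, adjusted p = 0.0586), both short of the threshold although the groups did not overlap. Non-overlap in that direction occurred in 17.5% of all genes tested. Jchain differed by 0.31 ± 0.41, Pigr by -0.03 ± 0.22 and Ccr7 by 0.00 ± 0.25, all with an adjusted p of 0.999 in limma. None of the 7 passed when any 1 of the 4 untreated arrays was left out or after quantile normalization, and 4 passed without either KO DSS array, namely Ccl21a, Ccl21b, Ccl21c and Cxcl13.

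With DSS, the genotypes were close for the Ccl21 copies and for Jchain, and Cxcl13 was above WT in both KO arrays, as were 16.1% of all genes tested. Cxcl13 averaged 12.94 ± 0.43 in KO with DSS and 11.79 ± 0.12 in WT with DSS (SD, n = 2 each), a difference of 1.15 ± 0.28 that did not pass (limma, adjusted p = 0.149, and 0.0397 without KO DSS replicate 2). Ccl21a differed by -0.05 (95% interval -0.77 to 0.66), Ccl21b and Ccl21c by 0.28 (-0.47 to 1.02), Jchain by 0.37 (-0.54 to 1.27), Ccr7 by 0.18 (-0.37 to 0.72) and Pigr by 0.02 (-0.46 to 0.50). None of the 7 passed in limma, where 0.354% of all genes tested differed in either direction, and 1 (Cxcl13) had an unadjusted p under 0.05.

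The DSS difference in KO minus that in WT was -1.77 ± 0.46 for Ccl21a and -1.83 ± 0.48 for Ccl21b and Ccl21c. This test of the difference itself, the interaction, did not pass for either (limma, adjusted p = 0.369, unadjusted p = 0.00270 and 0.00275). For Cxcl13 the interaction was -0.28 ± 0.39, for Jchain 0.05 ± 0.58, for Ccr7 0.18 ± 0.35 and for Pigr 0.05 ± 0.31. None of the 7 passed it, and 0.0769% of all genes tested did. The 3 with an unadjusted p under 0.05 were the Ccl21 copies, which are read as 1 signal.

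Averaged over the treatments, Cxcl13 was higher in KO than in WT by 1.29 ± 0.19, a 2.44-fold change (limma, adjusted p = 0.0155), and was the 1 of the 7 genes that passed, where 0.423% of all genes tested were higher. Ccl21b and Ccl21c differed by 1.19 ± 0.24 (limma, adjusted p = 0.0548) and Ccl21a by 0.83 ± 0.23 (limma, adjusted p = 0.154). The Cxcl13 call was lost without untreated KO replicate 2 and without either untreated WT array, at adjusted p-values of 0.0622, 0.0537 and 0.0795 in limma. Averaged over genotypes, Cxcl13 rose with DSS by 3.22 ± 0.19, Ccl21b and Ccl21c by 3.05 ± 0.24, Ccl21a by 2.85 ± 0.23 and Jchain by 2.78 ± 0.29 (limma, adjusted p between 6.33e-06 and 1.96e-04), while 3.47% of all genes tested rose.

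A few other genes of lymphoid tissue passed with DSS. Of 28 measured genes of the lymphotoxin pathway, homing receptors and addressins, 11 were under background on every array, among them the lymphotoxins Lta and Ltb, the inducer cytokine Tnfsf11 (RANKL) and the mucosal addressin Madcam1. Of the 20 tested, 3 rose with DSS in WT, where 2.91% of all genes tested rose, and 1 in KO, where 0.538% did. None fell, and 4 in WT and 7 in KO had an unadjusted p under 0.05. The stromal chemokine Cxcl12 had 12.23 and 12.63 in DSS-treated WT, against 9.25 and 8.87 in untreated WT, a difference of 3.37 ± 0.30 (limma, adjusted p = 9.76e-05). In KO it had 12.16 and 12.01 with DSS, against 10.87 and 10.01 untreated, a difference of 1.64 ± 0.30 (limma, adjusted p = 0.0337). Ackr3, a scavenger of CXCL12, and the adhesion molecule Vcam1 were under background on both untreated WT arrays. They rose in WT by at least 1.57-fold (limma, adjusted p = 0.00452) and 1.44-fold (limma, adjusted p = 0.0343). In KO Ackr3 differed by 1.02 ± 0.27 and Vcam1 by 1.05 ± 0.27, without passing (limma, adjusted p = 0.137 for both). The integrin genes Itgb7 and Itga4, which pair as a gut homing receptor, differed in KO by 0.71 ± 0.31 and 0.69 ± 0.27 (limma, adjusted p = 0.506 and 0.415), and the cytokine Il7 in WT by 0.75 ± 0.32 (limma, adjusted p = 0.283). Glycam1 of this list went the other way, at -1.55 ± 0.53 in KO and -1.04 ± 0.53 in WT (limma, adjusted p = 0.312 and 0.389). It was above background only on untreated KO replicate 1, at 7.76. The median of the 20 was 0.11 in WT and 0.09 in KO. Ccl20, the epithelial chemokine that draws CCR6-bearing cells to follicles, differed by -0.04 ± 0.27 in WT and 0.07 ± 0.27 in KO.

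The plasma cell markers that could be tested did not pass with DSS, unlike Jchain. Of 9 measured markers, Mzb1, Tnfrsf17, Irf4, Derl3 and Pou2af1 were under background on every array. Mzb1, a chaperone of antibody assembly, had 5.23 and 4.64 in KO with DSS, 4.06 and 4.58 in WT with DSS, 4.41 and 4.48 in untreated KO and 3.91 and 4.04 in untreated WT. The bright ones, Xbp1, Sdc1 and Txndc5, are also made by epithelial cells, and with DSS they differed by 0.19 ± 0.28, 0.13 ± 0.26 and -0.40 ± 0.26 in WT. None of the 5 tested markers passed in limma in either genotype, and 1 in each had an unadjusted p under 0.05. These were Prdm1 in WT, at 0.93 ± 0.37, and Derl3 in KO, at 0.55 ± 0.22 (limma, adjusted p = 0.236 and 0.445). Prdm1 differed by 0.64 ± 0.37 in KO and Derl3 by 0.10 ± 0.22 in WT. Prdm1 was above background only on WT DSS replicate 1, at 6.39. Of the 5 differences, 4 were positive in each genotype. Of 13 measured B cell markers 11 were under background on every array, including Ms4a1 (CD20) and Cd79a, and neither of the 2 tested passed or had an unadjusted p under 0.05. The immunoglobulin heavy and light chain genes Igha, Ighm, Igkc, Iglc1 and Iglv1 were on the list. They had no array row under these symbols and could not be analysed.

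**Figure D3:**
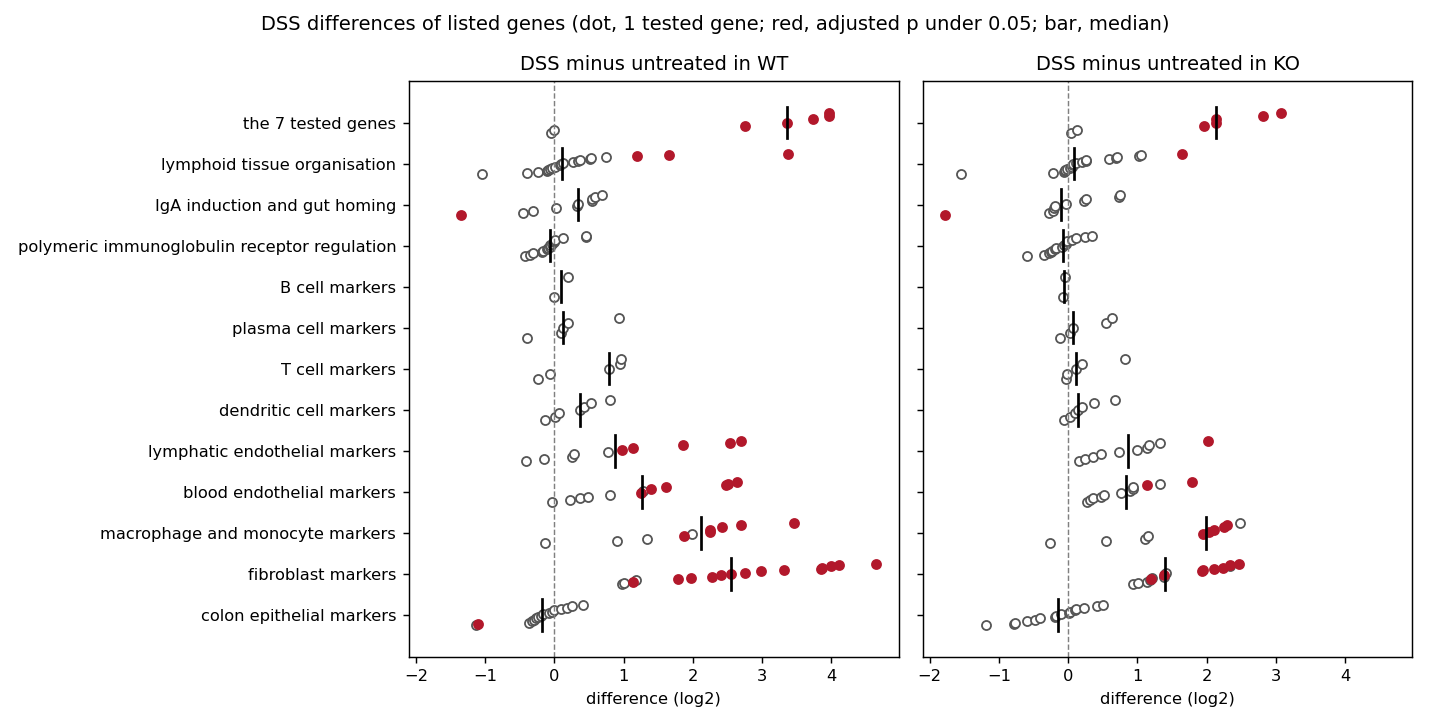
DSS minus untreated on the log2 scale (x axis) in WT (left) and KO (right) for the tested genes of 13 lists (y axis). A dot is 1 gene, red where its adjusted p is under 0.05, and a bar is the list's median. The Ccl21 copies, Cxcl13 and Jchain lie among the largest differences, with fibroblast, vessel and macrophage genes mostly to the right of 0 and B cell genes near it.

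Aldh1a1 was the 1 gene of the IgA induction list that passed with DSS, and no gene of the transport lists passed. Of 10 tested genes of IgA induction and gut homing, 1 fell in each genotype and none rose, with 3 in WT and 2 in KO at an unadjusted p under 0.05 and medians of 0.34 and -0.11. Aldh1a1, which makes retinoic acid, had 14.30 and 13.78 in DSS-treated WT, against 15.20 and 15.59 in untreated WT, and 14.51 and 13.99 in KO with DSS, against 15.98 and 16.07 in untreated KO. The differences were -1.35 in WT (limma, adjusted p = 0.0177), where 1.12% of all genes tested fell, and -1.78 in KO (limma, adjusted p = 0.0146), where 0.392% did. Ccl28, the chemokine of colonic epithelium that draws IgA plasma cells, differed by 0.02 ± 0.27 in WT and -0.03 ± 0.27 in KO. Ccl25 differed by -0.31 ± 0.26 and -0.22 ± 0.26, and Tnfsf13b (BAFF), a survival factor of B cells, by 0.34 ± 0.25 and -0.28 ± 0.25. Tgfb1, which directs switching to IgA, differed by 0.33 ± 0.22 in WT and 0.75 ± 0.22 in KO (limma, adjusted p = 0.555 and 0.22). The receptors Ccr9 and Ccr10 were under background on every array.

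Of 16 tested genes known to act on Pigr, such as Irf1, Il17ra, Rela and Myd88, none passed with DSS in limma, with 0 at an unadjusted p under 0.05 in WT and 1 in KO. Irf1, which activates Pigr in response to interferon, differed by -0.01 ± 0.26 in WT and -0.17 ± 0.26 in KO, and Il17ra by -0.09 ± 0.24 and -0.23 ± 0.24. Of 13 genes of vesicle traffic and transcytosis none passed and none had an unadjusted p under 0.05 in either genotype. Il17a and Il17f, whose products raise Pigr, were under background throughout. Of 7 tested M cell and follicle epithelium genes none passed, with 3 at an unadjusted p under 0.05 in WT and 1 in KO.

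Markers of stroma, vessels and macrophages moved with the chemokines. Of 17 fibroblast genes 14 rose with DSS in WT and 8 in KO, with medians of 2.55 and 1.40. For this and the lymphatic counts below, 2.91% of all genes tested rose in WT and 0.538% in KO. Medians over all genes tested were -0.05 and -0.04. The matrix genes Dcn (4.65), Dpt (3.87) and Sparc (3.31) were among those that rose in WT, and Dpt (2.46), Lum (2.34), Fbln1 (2.24) and Mgp (1.94) among those in KO. The mean of the list was 11.15 and 10.25 in KO with DSS, 10.37 and 10.85 in WT with DSS, 9.16 and 8.99 in untreated KO and 7.85 and 8.10 in untreated WT. Untreated KO lay between untreated WT and the DSS groups, as it did for the Ccl21 signals and Cxcl13. Of 10 lymphatic endothelial genes 5 rose in WT and 1 in KO, with Lyve1, a receptor on lymphatic vessels and some macrophages, at 2.70 ± 0.30 (limma, adjusted p = 3.47e-04) and 2.02 ± 0.30 (limma, adjusted p = 0.0129). Prox1, the factor that sets lymphatic identity, was under background in untreated WT and rose in WT by at least 1.77-fold (limma, adjusted p = 0.0389). Prox1 had 7.40 and 7.02 in KO with DSS, 7.02 and 6.89 in WT with DSS, 6.89 and 6.80 in untreated KO and 5.94 and 6.02 in untreated WT. Mmrn1 and Ccdc3 rose in WT by at least 2.64-fold and 4.79-fold. The membrane protein Pdpn, which is counted in the fibroblast list too, rose in WT by 1.14 ± 0.27 (limma, adjusted p = 0.0411). Its difference in KO was the same and did not pass (limma, adjusted p = 0.101). The lymphatic list averaged 6.32 or more on each DSS array, with 6.07 and 5.96 in untreated KO and 5.56 and 5.61 in untreated WT. The part of these cell types in the Ccl21, Cxcl13 and Jchain results was not tested.

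Of 12 blood endothelial genes 6 rose in WT and 2 in KO. For this and the following counts, 2.91% of all genes tested rose in WT and 0.538% in KO. Plvap, of fenestrated vessels, rose by 2.48 and 1.14, Pecam1 by 1.61 in WT, and the junction gene Cdh5 in WT by at least 4.97-fold. Of 10 macrophage and monocyte genes 6 rose in WT and 5 in KO. The monocyte gene Ly6c2, above background on 1 of the 2 untreated WT arrays, rose by 2.42 and 2.03, the Fc receptor gene Fcgr3 by 2.69 and 1.95, and lysozyme Lyz2 by 3.46 in WT. The complement gene C1qc, under background without DSS, rose by at least 1.72-fold in WT and 3.04-fold in KO. The macrophage list averaged 7.87 and 7.30 in KO with DSS, 7.13 and 7.43 in WT with DSS, 6.43 and 6.10 in untreated KO and 5.53 and 5.79 in untreated WT. Of 5 follicular dendritic cell genes 2 rose in WT and 1 in KO, with Fcgr2b, which macrophages also carry, at 2.98 and 2.26 (above background on 1 of the 2 untreated WT arrays) and Mfge8 at 1.27 in WT, while Cr2 and Madcam1 were under background. None of 5 T cell genes passed, with 3 at an unadjusted p under 0.05 in WT and 1 in KO, nor of 7 dendritic cell genes, with 1 in each. Cd3e had 6.47 and 6.47 in KO with DSS, 6.44 and 7.47 in WT with DSS, 6.54 and 6.45 in untreated KO and 6.15 and 5.85 in untreated WT. None of 14 smooth muscle genes passed with DSS, with 2 and 1 at an unadjusted p under 0.05. Of 12 exocrine pancreas genes Cela1, bright on every array, rose in WT and none in KO, and of 16 epithelial genes Krt20 fell in WT by 1.10 (limma, adjusted p = 0.0415) and none in KO. The epithelial cadherin Cdh1 differed by 0.10 ± 0.23 in WT and -0.11 ± 0.23 in KO.

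Between genotypes without DSS, 6 of the 175 genes tested in the 17 lists passed, all higher in KO, where 0.338% of all genes tested were higher. Of 17 fibroblast genes 3 were higher in KO, the matrix genes Sparc (2.08) and Dcn (2.17) and the filament gene Vim (1.60), with limma adjusted p-values of 0.01, 0.0328 and 0.0335 and a list median of 1.12. Plvap of the blood endothelium was higher by 1.49 and Ly6c2 of the monocytes by 1.70 (limma, adjusted p = 0.0176 and 0.0292). The smooth muscle list averaged 12.72 and 10.96 in KO with DSS, 11.01 and 10.54 in WT with DSS, 11.74 and 11.94 in untreated KO and 9.69 and 10.51 in untreated WT. Of its 14 genes 13 had an unadjusted p under 0.05 without DSS and 1, Pln, passed in limma, with a list median of 1.92. The other 13 lists held 0 genes that passed in limma among 123 tested, with 17 at an unadjusted p under 0.05. With DSS 0 of the 175 genes of all 17 lists passed between genotypes in limma, with 20 at an unadjusted p under 0.05. The part of these markers in the higher Ccl21 signals of untreated KO was not tested.

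**Figure D4:**
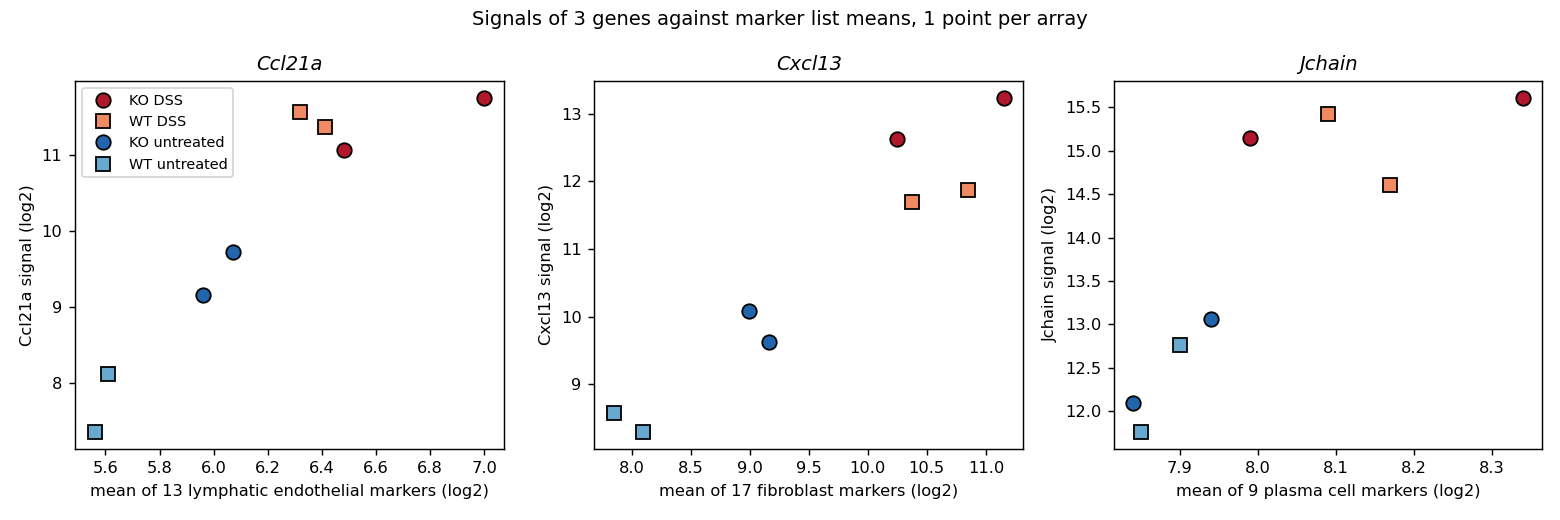
Log2 signals of Ccl21a, Cxcl13 and Jchain (y axes) against the mean log2 signal of lymphatic endothelial, fibroblast and plasma cell markers (x axes), 1 point per array, with KO as circles and WT as squares. Ccl21a and Cxcl13 are lowest in untreated WT, where the marker means are lowest too. The plasma cell mean is higher on each DSS array and spans 7.84 to 8.34, while Jchain spans 11.76 to 15.61. Of the 9 markers in that mean, 5 were under background on every array, and the bright ones are also made by epithelial cells. The mean therefore cannot show whether plasma cells changed in number.

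The bases before the gene starts are shown for the genes that rose together (Cxcl13, Ccl21a, Ccl21b, Jchain), and for Pigr and Ccl19, which give the level and the undetected case. Each run is the 250 bases before the RefSeq start in GRCm38.p6, 5′ to 3′ on the gene's strand, with matches to either motif below in capitals.
Cxcl13 (chr5:95956689-95956938, + strand): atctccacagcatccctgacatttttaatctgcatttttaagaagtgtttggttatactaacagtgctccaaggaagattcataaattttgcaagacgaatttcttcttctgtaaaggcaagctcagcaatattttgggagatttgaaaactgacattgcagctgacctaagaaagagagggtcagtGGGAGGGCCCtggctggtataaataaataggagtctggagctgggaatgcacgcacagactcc
Ccl21a (chr4:42773992-42774241, - strand): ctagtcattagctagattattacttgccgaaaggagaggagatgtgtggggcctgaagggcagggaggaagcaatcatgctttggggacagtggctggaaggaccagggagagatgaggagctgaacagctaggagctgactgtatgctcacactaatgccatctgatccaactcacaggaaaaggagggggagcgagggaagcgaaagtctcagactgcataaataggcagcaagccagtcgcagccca
Ccl21b (chr4:42172870-42173119, + strand): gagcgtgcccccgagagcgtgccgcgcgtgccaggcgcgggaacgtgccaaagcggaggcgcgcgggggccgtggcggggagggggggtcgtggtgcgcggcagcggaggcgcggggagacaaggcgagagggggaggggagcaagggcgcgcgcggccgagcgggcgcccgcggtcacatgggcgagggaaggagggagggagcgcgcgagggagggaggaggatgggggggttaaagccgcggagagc
Jchain (chr5:88527898-88528147, - strand): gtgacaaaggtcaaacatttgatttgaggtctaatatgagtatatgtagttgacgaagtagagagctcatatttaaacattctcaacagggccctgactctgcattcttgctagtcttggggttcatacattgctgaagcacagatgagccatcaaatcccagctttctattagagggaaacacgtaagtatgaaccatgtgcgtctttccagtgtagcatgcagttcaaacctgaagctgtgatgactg
Pigr (chr1:130826434-130826683, + strand): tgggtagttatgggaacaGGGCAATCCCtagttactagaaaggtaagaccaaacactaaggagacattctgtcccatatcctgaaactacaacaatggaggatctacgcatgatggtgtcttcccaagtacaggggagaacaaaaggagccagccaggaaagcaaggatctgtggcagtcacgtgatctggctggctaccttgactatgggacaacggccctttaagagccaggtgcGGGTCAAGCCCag
Ccl19 (chr4:42756366-42756615, - strand): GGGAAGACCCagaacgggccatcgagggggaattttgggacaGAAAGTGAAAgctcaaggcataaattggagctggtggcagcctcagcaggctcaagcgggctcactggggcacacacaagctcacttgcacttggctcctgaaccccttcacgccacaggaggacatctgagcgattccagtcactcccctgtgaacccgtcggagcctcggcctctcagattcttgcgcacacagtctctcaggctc
The motifs searched on both strands were a κB motif, to which NF-κB factors bind (GGG, any 5 bases, then CC), and an interferon response motif (GAAA, any 2 bases, then GAAA). Cxcl13 held 1 κB match, Ccl19 held 1, and Pigr held 3, of which a pair overlaps, while Ccl21a, Ccl21b and Jchain held 0. Such a match occurs in 45.8% of all 32851 promoter windows of this length, so its presence sets none of these genes apart. The interferon motif was found once, in Ccl19, and in 2.98% of all windows. The genes shown that rose therefore share neither motif within these 250 bases. Ccl21c also rose but had no entry, and an array row may pick up several Ccl21 copies. A match is a description of the letters, not of a bound site. Of the 8 genes, 6 had an entry in the promoter table.

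Genes with the most similar pattern over the 8 arrays were taken from all genes tested, leaving out the 8 genes and predicted genes. The arrays fall into DSS and untreated sets, so any gene that changed with DSS correlates, and the values are a description. For Ccl21a the closest were Serping1 (r = 0.996), Htra1 and Adamdec1 (both 0.991). For Ccl21b and Ccl21c they were Htra1 (0.995), Olfml2b and Serping1 (both 0.993). For Cxcl13 they were Olfml3 (0.987), Sfrp1 (0.985) and Lyve1 (0.981), and for Jchain Hsd11b1 (0.983), Tmem204 (0.981) and Pld4 (0.976). Serping1, the inhibitor of complement C1, had 11.36 and 10.79 in KO with DSS, 10.96 and 11.20 in WT with DSS, 9.42 and 9.06 in untreated KO and 7.49 and 7.94 in untreated WT. For Ccr7 the closest were Popdc3 (0.948), Mblac1 (0.946) and Mink1 (0.945), and for Pigr Polr3k (0.931), Ttll4 (0.908) and Orc2 (0.898), on differences no larger than the spread between replicates.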

How the data were processed

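RNA of 8 samples was measured on Affymetrix gene arrays. The values are log2 signals, used as the authors deposited them. They were made with Affymetrix Expression Console, per the submitters' processing notes, with its background and scaling steps not given in the sources used here.

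Of 28846 rows, 6640 control rows and 2634 without a symbol were left out. The other 19572 gave 19505 genes, of which 13003 were tested after the lowest 33.3% by mean signal (below 5.15) were dropped. All 8 arrays entered 1 limma fit (limma 3.58.1, R 4.3.3) of the 4 groups, with 4 residual and 7.27 prior degrees of freedom and no covariates. Tests were two-sided. P-values were adjusted by the Benjamini-Hochberg method across the whole table, and those under 0.05 passed. The fit was tested on simulated data. Since a sample may be 1 mouse or a pool, p-values speak of the spread between samples, and the number of arrays limits the precision. An exact permutation test of 2 against 2 arrays cannot go below p = 0.333. "At least N-fold" sets the bright group's mean against background in the other. Alternatives were no filter, all rows, other scalings (equal medians, quantile), a trended robust variance, weights per array, fits on the compared groups alone, a block for replicate number, and arrays left out.

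The 8 genes and the 17 other lists were chosen with earlier results of these data known. Named were the 8 genes, up to 4 genes of smallest p per list and comparison, a fixed set of receptor, ligand and marker genes, and the 3 genes of most similar pattern. Xbp1, Sdc1, Txndc5, Prdm1, Derl3, Acta2, Tgfb1, Itgb7, Itga4, Il7 and Glycam1 were added after their values were seen. So were the uncalled values of Ackr3 and Vcam1 in KO and the genes given only as under background. Promoters come from RefSeq (GRCm38.p6). Replicate numbers did not pair the samples (correlations of deviations between -0.25 and 0.28).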

Additional observations from a re-analysis of the deposited data

How the results depend on the processing

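Of 819 differences of the 8 genes under other settings, 722 kept their direction and side of the threshold, 26 lost a call, 21 gained one and 50, all of them differences that did not pass, changed sign. The number of the 7 tested genes that passed was 5 for DSS in WT, 5 for DSS averaged over genotypes and 0 for the interaction under every setting run. For DSS in KO it was 1 with only the arrays compared, and 1 to 5 with single arrays left out. For KO against WT without DSS it was 0 after quantile normalization, 4 with trend and robust, 4 with array weights, 4 with only the arrays compared, 4 without WT DSS replicate 1 and KO DSS replicate 1 together, and 0 to 4 with single arrays left out. For KO against WT with DSS it was 0 to 1 with single arrays left out. For genotype averaged over treatments it was 3 with trend and robust, 3 with array weights, 3 with the replicate block (Ccl21b and Ccl21c gained at an adjusted p of 0.0454 in limma), and 0 to 3 with single arrays left out. The replicate block, on numbers that did not pair the samples, changed no other call of these genes. The causes were not tested. The total of 819 counts the identical Ccl21b and Ccl21c rows separately. It also holds Ccl19, whose label was fixed as unchanged, and left-out arrays outside a comparison, which cannot move its difference. The 722 therefore overstate the number of independent checks.

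The sign changes were as follows. With array medians set equal, Pigr was at -0.02 for DSS in KO, -0.02 for KO against WT with DSS and -0.05 for DSS averaged, and Ccr7 at -0.03 for DSS averaged. With quantile normalization Ccl21a was at 0.05 for KO against WT with DSS and Ccr7 at 0.00 for DSS averaged. Without WT DSS replicate 1 and KO DSS replicate 1 together, Ccr7 was at 0.17 for DSS in WT, and for KO against WT with DSS Ccl21b and Ccl21c were at -0.23, Ccr7 at -0.04 and Jchain at -0.26. There the interaction was -0.04 for Ccr7 and -0.58 for Jchain, and the genotype average -0.02 for Ccr7 and 0.05 for Pigr.

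With single arrays left out, DSS in WT was -0.27 to 0.17 for Ccr7 and -0.10 to 0.08 for Pigr, and DSS in KO was -0.04 to 0.13 for Pigr. KO against WT without DSS was -0.20 to 0.20 for Ccr7, -0.19 to 0.82 for Jchain and -0.12 to 0.06 for Pigr. KO against WT with DSS was -0.40 to 0.29 for Ccl21a, -0.27 to 0.82 for Ccl21b and Ccl21c, -0.04 to 0.39 for Ccr7, -0.04 to 0.77 for Jchain and -0.06 to 0.11 for Pigr. The interaction was -0.58 to 0.03 for Cxcl13, -0.04 to 0.40 for Ccr7, -0.45 to 0.55 for Jchain and -0.04 to 0.14 for Pigr. The DSS average was -0.07 to 0.15 for Ccr7 and -0.03 to 0.06 for Pigr, and the genotype average -0.02 to 0.20 for Ccr7 and -0.05 to 0.04 for Pigr.

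Over all genes, 525 passed for DSS in WT (215 to 988 under other settings), 121 for DSS in KO (14 to 297), 51 for KO against WT without DSS (3 to 252), 46 with DSS (21 to 215), 10 for the interaction (5 to 36), 718 for DSS averaged (396 to 1054) and 88 for genotype averaged (28 to 362). Ccl19 gave no call without the filter, with 0.712 as its lowest adjusted p in limma.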
